A study of Homo sapiens with 4 samples.

Results

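The cytosolic ribosome is built from ribosomal RNA and a fixed set of proteins, those of the small subunit (RPS genes and RPSA) and those of the large subunit (RPL genes and the stalk genes RPLP0, RPLP1 and RPLP2). Their mRNAs are among the most abundant of growing cells. Most begin with a terminal oligopyrimidine (TOP) tract, a C followed by further C or T bases, which is known for coupling their translation to growth signals. Many of these genes have left processed copies, or pseudogenes, across the genome. The genes were selected by symbol: RPL or RPS followed by a number and at most 1 of the letters A, X, Y or L, together with RPLP0, RPLP1, RPLP2 and RPSA. This gave 82 of the 23228 genes counted, 33 of the small and 49 of the large subunit.

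ES2 cells, an established human ovarian cancer line, were treated for 24 h with vehicle or with liquiritigenin (Liq), a plant flavanone used as an agonist of estrogen receptor β. The study's methods give the dose as 100 μM, and the medium of both groups was free of phenol red with charcoal-treated serum. RNA-seq was done on 2 samples per group. Nothing in the labels says that the samples came from separate cultures, so p-values measure only the spread between these samples. The depth, taken as reads on genes, was 42470837 and 38263927 for vehicle and 34573053 and 48933893 for Liq. Markers of both kinds were present. The mesenchymal genes VIM and FN1 were at 5871 CPM (read counts scaled to a common library size by TMM) or more in every library. Both were lower with Liq, with log2 fold changes of -0.28 and -0.15. Of the other mesenchymal markers looked at, CDH2 was higher with Liq (0.22), and ZEB1 and TWIST1 differed by 0.01 and -0.03. Of 10 epithelial and Müllerian markers, 5 passed the filter on low counts. The keratin genes KRT7 and KRT18 stood between 166 and 378 CPM, with KRT7 higher and KRT18 lower with Liq. KRT8 differed by 0.13 (log2). PAX8 and WT1 were low and fell with Liq, by -1.34 and -0.68 on the log2 scale. Their means were 1.21 and 4.46 CPM with vehicle and 0.46 and 2.77 CPM with Liq. EPCAM, KRT19 and CDH1 had at most 3 counts in a library. Of 9 markers of blood, immune and endothelial cells, CD68 and CDH5 alone passed the filter on low counts. ESR2, the gene of estrogen receptor β, had between 4 and 14 counts in each library.

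The starts of 8 transcripts are printed here because the tract is the feature that ribosomal protein mRNAs share beyond their symbol. RPL14 and RPS27L were higher with Liq, and the other 6 were lower. Each line holds 12 bases before and 16 bases from the start of the MANE Select transcript (the agreed reference transcript of a gene) in GRCh37. Capitals mark the tract, and a line without capitals has none at that start.
RPL14, chr3:40498818-40498845, plus strand: cgggtcttcttcCTTCTCgcctaacgcc
RPS27L, chr15:63449661-63449688, minus strand: ttgatgccgagcgcagatcgcttgcagc
RPL35, chr9:127624221-127624248, minus strand: cccgcctacttcCTCTTTCCCTCggagc
RPS24, chr10:79793609-79793636, plus strand: cgaatcgtggttCTCTTTTCCTCCTTgg
RPL11, chr1:24018284-24018311, plus strand: aagctccgctttCTCTTCCTgctctcca
RPL35A, chr3:197677049-197677076, plus strand: cggggcctcgtcCTTCTCTTaccgccat
RPL24, chr3:101405547-101405574, minus strand: ccatgattctctCTTTCTTTTCgccatc
RPL9, chr4:39460527-39460554, minus strand: cgtaatgacgacagacgttctttctttg

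A tract was taken as a C at the start followed by at least 4 C or T bases. It stood at the start of 58 of the 81 ribosomal protein transcripts that could be matched (71.6%), against 891 of 18922 MANE Select transcripts (4.71%). The median tract among the 81 was 7 bases. The paralog RPS27L had none, nor did RPL39L, RPL3L and RPL10L. Among ordinary ribosomal protein genes without it at the listed start were RPL9, RPS7 and RPL17, for which the match says only that these letters are not in this window.

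The level of the set as a whole was close to that of the vehicle samples. Of the counted reads, the 82 genes took 4.79% and 4.56% with vehicle, against 4.82% and 4.61% with Liq. The Liq mean was higher by 0.0422 percentage points, within a spread of 0.158 points (SD, n = 2) between the vehicle samples (exact permutation test, two-sided p = 0.667, where 2 against 2 samples cannot reach a p below 1 in 3). As a share of all reads tallied, uncounted ones included, the values were 2.66% and 2.53% with vehicle and 2.61% and 2.55% with Liq. The small subunit genes took 1.92% and 1.82% with vehicle and 1.91% and 1.85% with Liq, and the large subunit genes 2.87% and 2.74% with vehicle and 2.91% and 2.76% with Liq. Shares of bulk RNA cannot tell fewer cells of a type from less RNA per cell.

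The differences of single ribosomal protein genes between Liq and vehicle were small. Of the 82 genes, 77 passed the filter on low counts. By edgeR's quasi-likelihood test with Benjamini-Hochberg adjustment over 13546 genes, 9 fell and 2 rose at adjusted p under 0.05, which is 14.3% of the 77, while 24.0% of all tested genes were called. By direction, 11.7% of the 77 fell against 11.3% of all tested genes, and 2.60% rose against 12.6%. No ribosomal protein gene was called at 1.5-fold or more, whereas 6.45% of all tested genes were. At any p the largest difference was -0.42 on the log2 scale, in RPS10, and DESeq2 also placed none past 1.5-fold.

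**Figure D1:**
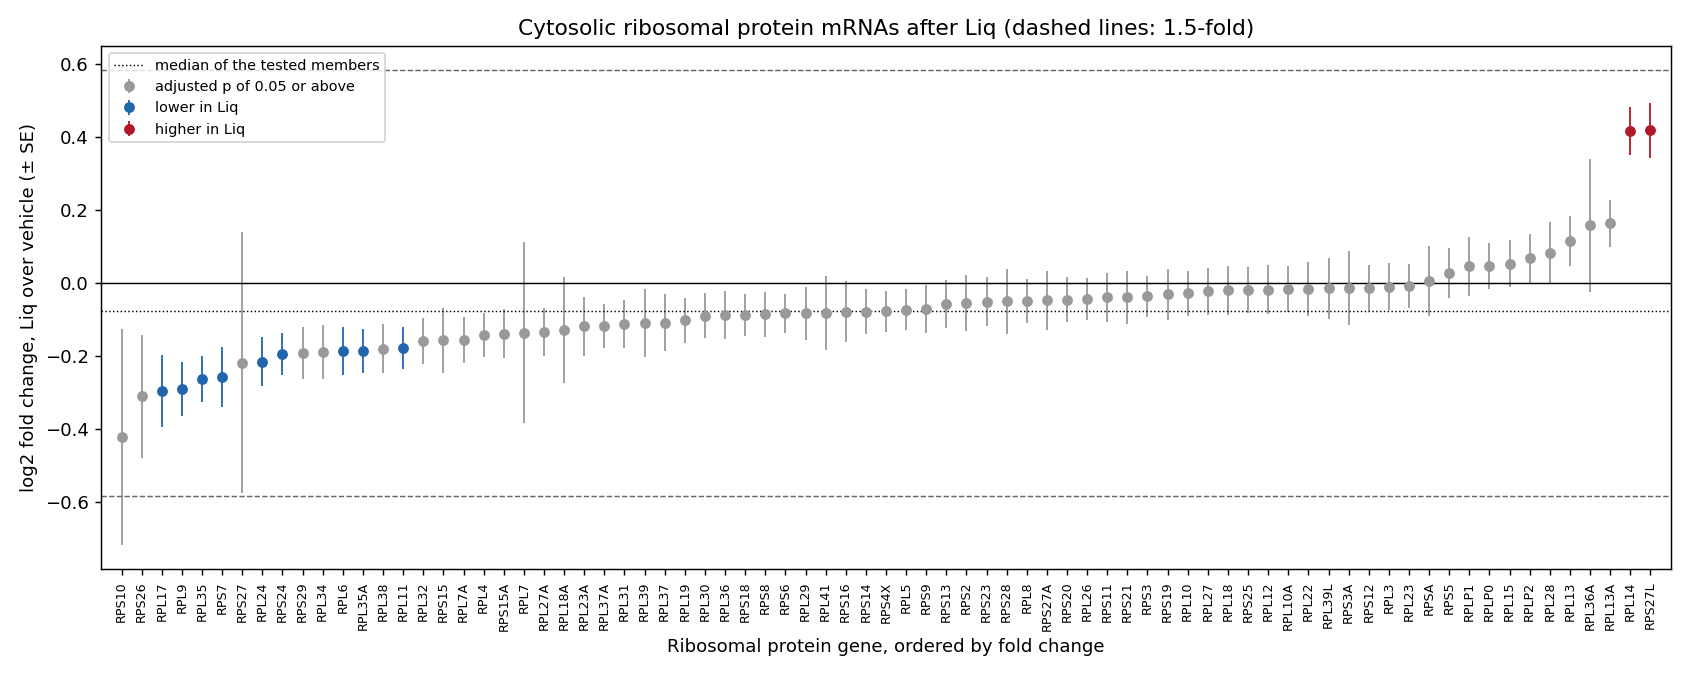
Each point is the log2 fold change of 1 tested ribosomal protein gene (n = 2 samples per group), with its SE as a bar, ordered from lowest to highest. Dashed lines mark 1.5-fold and the dotted line the median of -0.08. RPL14 and RPS27L stand at 0.42, apart from the next highest gene at 0.16.

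The fold changes lay in a narrow band. Their median was -0.08 (log2), against 0.01 over all tested genes, and their interquartile range was 0.12, against 0.32 over all tested genes. Within 1.2-fold were 71 of 77 ribosomal protein genes (92.2%) and 70.3% of all tested genes. The 95% interval of 73 of the 77 lay wholly within 1.5-fold. Below zero were 65 of the 77, 28 of 31 in the small and 37 of 46 in the large subunit, with medians of -0.06 and -0.09. Loess offsets along the expression level gave a median of 0.01 with 34 of 77 below zero, against -0.003 over all tested genes. Scaling to library totals moved all genes alike, to a median of 0.0004 with 37 of 77 below zero, against 0.08 over all tested genes. Both Liq samples lay below both vehicle samples for 30 of the 77 genes, against 4087 of all 13546 tested genes (30.2%). They lay above for 3 of the 77, RPL13A, RPL14 and RPS27L, against 4270 of all 13546 tested genes (31.5%).

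RPL14, a protein of the large subunit encoded on chromosome 3 (40498830 to 40510078, GRCh37, plus strand), rose 1.33-fold. It stood at 317 and 299 CPM with vehicle, against 409 and 414 CPM with Liq. The groups were well apart and the samples within each were close. The log2 fold change was 0.42 ± 0.07 (SE, adjusted p = 3.54e-05). RPS27L, a paralog of the small subunit protein RPS27 known to be induced by DNA damage, lies on chromosome 15 (63440448 to 63449676, minus strand) and rose 1.34-fold. Its level was 76.4 and 74.1 CPM with vehicle and 100.4 and 100.8 CPM with Liq. Here too no vehicle sample reached the Liq samples, as in 31.5% of all tested genes (log2 fold change 0.42 ± 0.08 SE, adjusted p = 0.000188). Both genes rose under all 13 alternative settings, each sample left out included, RPL14 by 0.37 to 0.50 with adjusted p of at most 0.00536 and RPS27L by 0.40 to 0.50 with adjusted p of at most 0.02.

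RPL35, which sits near the exit of the peptide tunnel, fell from 494 and 500.3 CPM to 411 and 418 CPM. RPL9 fell from 350.7 and 382 CPM to 323 and 277 CPM, with more spread between the Liq samples than RPL35 had. RPL17, another protein lining the tunnel exit, fell from 19.1 and 19.8 CPM to 15.6 and 16.1 CPM. In all 3 genes both Liq samples lay below both vehicle samples, as in 30.2% of all tested genes. The log2 fold changes were -0.26 ± 0.06 (adjusted p = 0.00318), -0.29 ± 0.07 (adjusted p = 0.00501) and -0.30 ± 0.10 (adjusted p = 0.0289).

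RPS7 and RPS24 were the called genes of the small subunit that fell. RPS7 was at 51.6 and 53.7 CPM with vehicle and at 45.3 and 42.8 CPM with Liq. RPS24 was at 1145 and 1162 CPM with vehicle and at 1009 and 1006 CPM with Liq. Their log2 fold changes were -0.26 ± 0.08 (adjusted p = 0.0236) and -0.20 ± 0.06 (adjusted p = 0.0150).

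The other called genes belonged to the large subunit. RPL24 fell from 332 and 318 CPM to 271 and 288 CPM (log2 fold change -0.22 ± 0.07 SE, adjusted p = 0.0197). RPL6 fell from 312 and 304 CPM to 267 and 274 CPM (-0.19 ± 0.07, adjusted p = 0.0408). RPL35A fell from 865 and 859 CPM to 744 and 772 CPM (-0.19 ± 0.06, adjusted p = 0.0246). None of these 3 pairs of groups overlapped, with Liq below, as in 30.2% of all tested genes. Each fall was under 1.2-fold in size.

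The calls of lower genes depended on each sample. Without vehicle sample 1 only RPL9 was still called lower, and without vehicle sample 2 none was by edgeR, where 19 were lower at unadjusted p under 0.05. Of all tested genes, 10.3% and 11.2% were then called. Without Liq sample 1 or 2, 5 and 6 of the 9 were still called among 10 lower genes. The 9 kept a negative log2 fold change throughout. That of RPL35 was -0.27 and -0.25 without vehicle sample 1 or 2, and that of RPS24 was -0.21 and -0.19. With all samples, 17 genes were lower and 3 higher at unadjusted p under 0.05, and DESeq2 called 8 lower, all of them among the 9, and the same 2 higher.

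**Figure D2:**
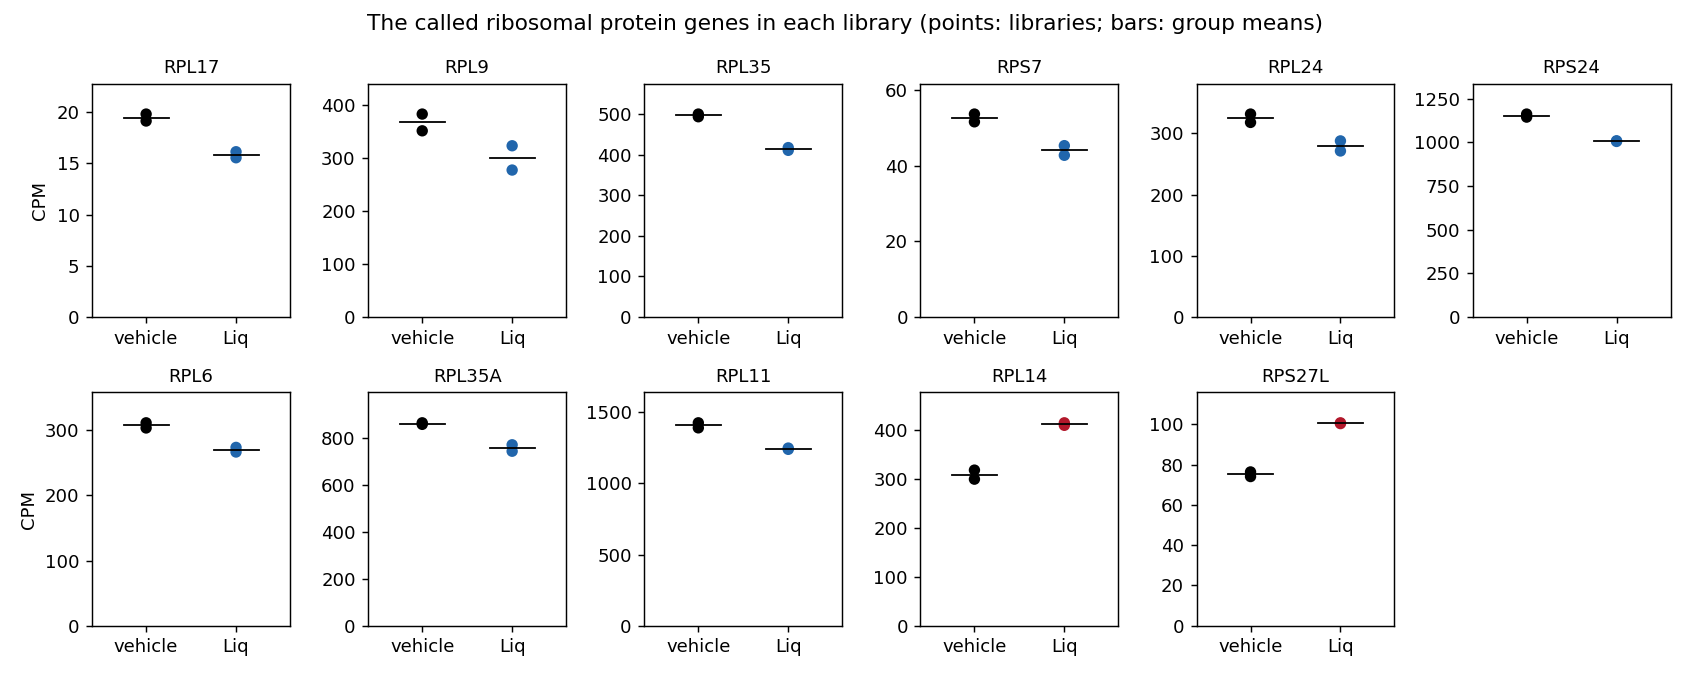
Level in CPM (TMM-scaled, linear axis from 0) of the 11 called genes in each of the 4 libraries, with black points for vehicle, coloured points for Liq and a bar at each group mean. RPL14 goes from about 308 to 412 CPM and RPL11 from about 1409 to 1244 CPM.

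RPL11 and RPL5 form a complex with 5S ribosomal RNA, which is known for binding MDM2 when ribosome assembly is disturbed. RPL11 stood at 1391 and 1426 CPM with vehicle and at 1249 and 1240 CPM with Liq. Its log2 fold change was -0.18 ± 0.06 (adjusted p = 0.0229). RPL5 was at 1578 and 1601 CPM with vehicle and 1513 and 1510 CPM with Liq, lower in both Liq samples but by -0.07 ± 0.06 (adjusted p = 0.369, 95% interval -0.19 to 0.04). The difference between these 2 genes was not tested.

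The stalk proteins recruit elongation factors to the ribosome. RPLP0 was at 1017 and 917 CPM with vehicle and 1022 and 976 CPM with Liq. RPLP1 was at 567 and 445 CPM with vehicle and 547 and 497 CPM with Liq. For RPLP2 the values were 318 and 289 CPM with vehicle and 316 and 319 CPM with Liq. The groups overlapped for all 3, and the log2 fold changes of 0.05, 0.05 and 0.07 had 95% intervals of -0.08 to 0.18, -0.12 to 0.21 and -0.07 to 0.21.

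Genes mutated in Diamond-Blackfan anemia, an inherited failure of red cell production, make up 19 of the 82 genes. Of 18 tested, 5 fell and 0 rose by edgeR's adjusted p (at unadjusted p under 0.05, 7 and 0), or 27.8% called, against 24.0% of all tested genes, with a median log2 fold change of -0.16. The 5 were RPL11, RPL35, RPL35A, RPS7 and RPS24. The count was 1 with library totals, 3 with loess offsets and 0 by edgeR without either vehicle sample (5 lower at unadjusted p under 0.05 in each case). Among 8 proteins of the peptide exit tunnel 2 fell, RPL35 and RPL17, and 0 did by edgeR without vehicle sample 1 or 2 (2 and 3 lower at unadjusted p under 0.05). Among 8 of the mRNA channel and decoding side edgeR called 0, also at unadjusted p under 0.05. Over all tested genes, 24.0% were called and 11.3% were lower.

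The level counted for a gene varied far more between genes than between treatments. Levels between genes are given here per kb of coding sequence, averaged over the 4 libraries. Highest were RPL30 at 4092, RPL37A at 4089, RPS6 at 3947, RPS18 at 3747 and RPL8 at 3525 CPM per kb. RPS6, the classical target of S6 kinase, ranged from 3823 to 4125 CPM per kb over the libraries, and these 5 genes were not called. The tested genes with the lowest levels were RPL7 at 1.67, RPS10 at 1.70, RPS27 at 2.19, RPS26 at 9.38 and RPL36A at 12.1 CPM per kb. All 5 encode core proteins of the ribosome.

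In counts, RPL7 had 46, 55, 46 and 54 reads in vehicle samples 1 and 2 and Liq samples 1 and 2. RPS10 had 32, 43, 27 and 34 reads, and RPS27 had 19, 27, 21 and 22. RPS26 had 157, 124, 113 and 132 reads. With so few reads the SE of the log2 fold change was 0.25 for RPL7, 0.30 for RPS10 and 0.36 for RPS27, against a median of 0.07 over the 77 genes, and a change of the size seen in RPL14 was not detectable in them at this depth.

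Reads that aligned to more than 1 place were tallied apart and are in no gene's count. They made up 35.6% to 36.2% of the reads tallied in each library, with Liq higher by 0.238 percentage points (exact permutation test, p = 0.667). To see which genes this touches, each stretch of 100 bases, the read length, that overlaps the coding sequence was looked up in GRCh37. For RPL21, RPL39, RPS27, RPL7, RPS28 and RPL36A, 100%, 98.1%, 94.1%, 88.8%, 85.5% and 85.5% of the stretches stood elsewhere without a mismatch. For RPL11, RPL38, RPL18, RPS19 and RPS27L none did, even with up to 2 substitutions. In all, 55 of 81 genes had at least 1 stretch with an exact copy elsewhere.

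**Figure D3:**
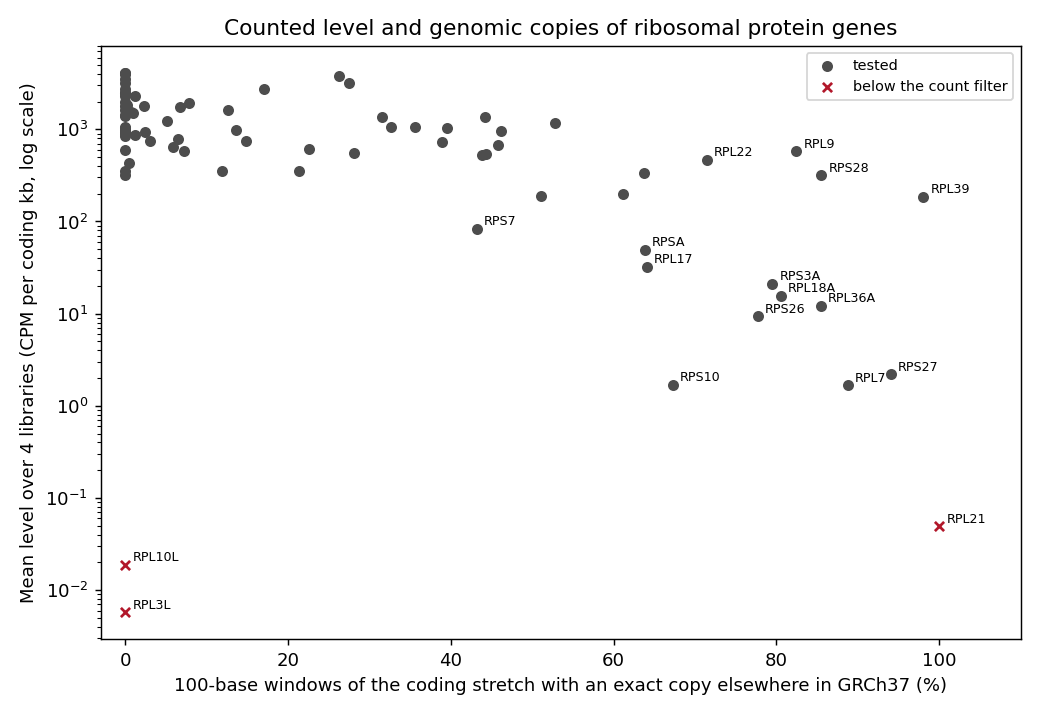
Mean level per coding kb over the 4 libraries (log scale) against the percentage of 100-base stretches with an exact copy elsewhere in the genome, 1 point per gene with a level above 0. The tested genes below 13 CPM per kb all lie above 60% on the horizontal axis, while RPL10L and RPL3L are low with no copy.

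Genes with more copies had lower counted levels. The 18 genes with an exact copy for at least 50% of the stretches had a median level of 40.5 CPM per kb, the 37 with a smaller share 960.0, and the 26 with none 1516. The Spearman correlation of share and level was -0.58 over 81 genes, which share libraries and are no independent replicates. With the fold change the correlation was -0.11 over 77 genes. The median log2 fold changes were -0.12, -0.06 and -0.08 in the 3 classes, with 3 of 17, 5 of 36 and 3 of 24 tested genes called. Of the called genes, RPL9 had exact copies for 82.4% of its stretches, RPL17 for 64.1% and RPL6 for 63.7%. RPL14 had 28.1% and RPS27L none. Reads from a stretch with an exact copy are not in these counts. All coding bases of RPL17 also lie in another listed gene, and which bases its counted reads came from was not determined.

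RPSA, the laminin-binding small subunit protein, shows how close such a copy can be. Its nearest copy lies on chromosome 19 (24009886 to 24010923, GRCh37) in the gene listed as RPSAP58, and differs at 8 of 1038 bases. A stretch of exon 4 of RPSA is printed beside the copy with the differing base in capitals (C15T, positions counted from the left).
RPSA, chr3:39452327-39452356, plus strand: tccaggcagccttcCgggagccacggcttc
RPSAP58, chr19:24010298-24010327, plus strand: tccaggcagccttcTgggagccacggcttc

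RPSA itself was counted at 46.4 and 40.3 CPM with vehicle and 39.5 and 47.4 CPM with Liq. In reads, RPSA had 1909 and 1508 with vehicle and 1404 and 2379 with Liq. The copy had more reads, 9024 and 8666 with vehicle and 7628 and 10661 with Liq. Neither passed the test between groups, with log2 fold changes of 0.005 ± 0.10 (adjusted p = 0.974) and -0.08 (adjusted p = 0.434). RPL19P12, listed as a copy of RPL19, had 8233, 6724, 6370 and 8742 reads in the same order. Of 27 rows named as ribosomal protein pseudogenes, 16 were tested. RPL32P3 and RPSAP52 were higher and RPL13AP20 lower, each counted at no more than 367 reads in a library. They are 18.8% of the 16, against 24.0% called of all tested genes.

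Overlapping genes can withhold reads as well, since a read in 2 genes is tallied as ambiguous. All coding bases of RPL17, 94.3% of those of RPL36A and 92.1% of those of RPS10 also lie in a read-through gene of the tables, each of which had 0 reads in every library. RPS23 shares 54.1% with ATG10 and RPS3A 26.4% with SH3D19 on the other strand, and whether counting used strand is not given in the sources used here. Ambiguous reads were 0.544% to 0.557% of those tallied.

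Of the 82 genes, 5 did not pass the filter. Among these, RPL21, with copies for every stretch, had 0 and 1 reads with vehicle and 1 and 2 with Liq. RPL10L and RPL3L, paralogs known from testis and from striated muscle, had 0 reads with vehicle and at most 1 per Liq library. The paralog RPL39L was expressed, at 50.01 and 48.0 CPM with vehicle and 50.3 and 46.8 CPM with Liq, and the groups overlapped (log2 fold change -0.02, 95% interval -0.19 to 0.16).

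Some ribosomal genes carry other names. Of 6 such genes tested, 2 fell and 0 rose by edgeR, or 33.3% called, against 24.0% of all tested genes. With library totals 0 of the 6 were lower, and with loess offsets 1 was. FAU, which encodes a ribosomal protein fused to a ubiquitin-like protein, stood at 447 and 350 CPM with vehicle and at 359 and 336 CPM with Liq (adjusted p = 0.0783). RPL7L1 fell from 43.5 and 50.8 CPM to 38.5 and 36.5 CPM (log2 fold change -0.33 ± 0.09, adjusted p = 0.00863) and RPL36AL from 112.1 and 106 CPM to 93.4 and 90.2 CPM (-0.25 ± 0.08, adjusted p = 0.0163). RPL22L1 was at 314 and 345 CPM with vehicle and 259 and 320 CPM with Liq, and RPL26L1 at 21.0 and 21.2 CPM with vehicle and 19.9 and 16.8 CPM with Liq, with adjusted p of 0.0923 and 0.148.

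Other genes of translation are given by the same counts. Of 75 tested genes of the mitochondrial ribosome, 17 fell and 0 rose by edgeR (DESeq2 16 and 0, edgeR's unadjusted p under 0.05 30 and 0), which is 22.7% lower against 11.3% of all tested genes, with a median log2 fold change of -0.15. Without vehicle sample 1 or 2, 4 and 6 were lower, with medians of -0.12 and -0.18. MRPL15, MRPL27, MRPS18B and MRPS22 had the smallest p, with -0.42, -0.43, -0.34 and -0.34. Of 38 initiation factors 9 fell and 0 rose (DESeq2 9 and 0, edgeR's unadjusted p under 0.05 20 and 0), or 23.7% lower against the same 11.3%, with a median of -0.14, led by DENR, EIF2B2, EIF4H and EIF4G2 with -0.34, -0.36, -0.26 and -0.20. Without vehicle sample 1 or 2, 1 and 2 of them were lower, with medians of -0.14 and -0.13. Under scaling to library totals the mitochondrial median was -0.07 with 8 lower and 1 higher, and the initiation factor median -0.07 with 2 lower. With loess offsets 3 initiation factors were lower and 1 higher. Of 11 elongation and termination factors 3 fell, EIF5A by 0.37, ETF1 by 0.28 and ABCE1 by 0.23 on the log2 scale. That is 27.3% called, against 24.0% of all tested genes, and 2 were lower with library totals or loess offsets. Their median was -0.12, and it was -0.14 and -0.17 without vehicle sample 1 or 2.

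Among 19 mRNAs other than ribosomal protein genes known to carry a TOP tract, NPM1 fell (-0.27, adjusted p = 0.00374) and the noncoding GAS5 rose (0.23, adjusted p = 0.0170). That is 10.5% called, against 24.0% of all tested genes. The median of the 19 was -0.05, and it was 0.03 under loess offsets. Of 31 regulators of translation, 2 were lower and 5 higher, or 22.6% called, against 24.0% of all tested genes. Their median was -0.01, and it was -0.007 and -0.006 without vehicle sample 1 or 2. Of these regulators, SESN3 and DDIT4, both known as inhibitors of mTORC1 signalling, rose by 1.28 and 0.63 on the log2 scale, past 1.5-fold. PDCD4, an inhibitor of EIF4A, fell by 0.31, and EEF2K, the kinase of elongation factor EEF2, rose by 0.34.

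**Figure D4:**
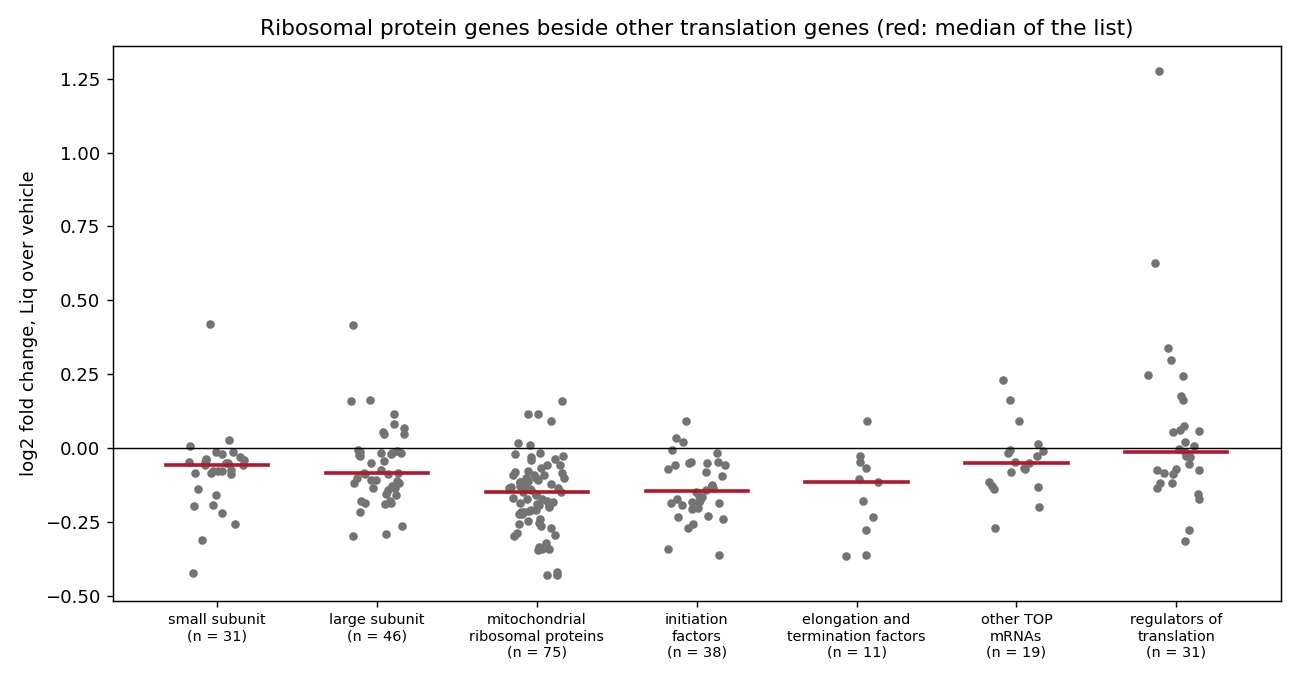
Each point is the log2 fold change (Liq over vehicle) of 1 tested gene, grouped by subunit or list, with the median as a red bar and the number of tested genes under each name. The medians lie between -0.15 for mitochondrial ribosomal proteins and -0.01 for regulators of translation, with SESN3 alone above 1.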

How the data were processed

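RNA-seq of ES2 cells was analysed, with 2 vehicle and 2 Liq samples. The authors aligned 100-base single-end reads of TruSeq libraries to hg19 with TopHat2 2.0.8b and counted them per gene with HTSeq (submitters' processing notes, which also name bcl2fastq 2.17.1.14), and deposited the raw read counts of each library as a table per sample. The labels and the design text name different sequencers. The 5 tally rows of each table were left out of library sizes and tests. Counts on genes were fitted with edgeR 4.0.16 under R 4.3.3 (filterByExpr with minimum count 10 and total 15, TMM, glmQLFit and glmQLFTest, no block); an SE is the size of the log2 fold change divided by the square root of F. DESeq2 1.42.0 was an alternative, as were other scalings and filters. On simulated counts for 13546 genes of this comparison, edgeR recovered 199 of 200 changed genes. Recovery was not tested for differences as small as those of the called ribosomal protein genes, or for genes with few reads.

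Positions, lengths and starts came from GENCODE on GRCh37. Of the 82 genes, 81 matched. Copies were sought on chromosomes 1 to 22, X and Y, without gaps, for 100-base windows overlapping the coding sequence rather than the whole transcript, since some reference transcripts have very long ends; spliced copies were not covered. Levels per kb use the coding length. 3 counts correspond to 0.0613 to 0.0868 CPM, and this floor covers counting error only. Genes and lists were chosen with earlier results of these data known. Values in every library are given for the 8 called genes with the largest rise or fall, the stalk and 5S complex, the paralogs, companion genes and genes below the filter; the 5 highest and 5 lowest levels are named, and up to 4 genes by p from other lists. A few of the genes this rule covers are not reported here.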

Additional observations from a re-analysis of the deposited data

How the results depend on the processing

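The 2 higher genes, RPL14 and RPS27L, were called under every one of the 13 alternatives that refit the data. The count of higher genes was 4 with library totals, 4 with loess offsets and 4 with the replicate block, and 2 to 4 with each sample left out. The count of lower genes was 9, and became 2 with library totals, 5 with loess offsets and 17 at unadjusted p under 0.05, and ranged from 0 to 10 with each sample left out. These counts fell to 1 without vehicle sample 1 and to 0 without vehicle sample 2, settings with 1 vehicle sample, which is assumed to vary like the Liq samples. The median log2 fold change was 0.0113 with loess offsets and ranged from -0.1196 to -0.02509 with each sample left out. The cause of these shifts was not tested beyond the construction of each setting. With the replicate number as a block 22 genes were lower, including all 9. So were 33 mitochondrial ribosomal protein genes, 21 initiation factors and 8 Diamond-Blackfan anemia genes. With that block 2474 of all 13546 tested genes were lower and 35.4% were called, against 24.0% in the main fit. Over all tested genes, library totals gave 827 lower and 2529 higher, and loess offsets 1348 and 1489. Unadjusted p under 0.05 gave 2337 lower and 2553 higher. The replicate numbers are only shared: deviations of same-numbered samples correlated at 0.0483 over all tested genes (r, 13546 genes). Over the 77 tested ribosomal protein genes r was -0.2793. No gene passed 1.5-fold at adjusted p under 0.05 by any setting, and the share of counted reads differed by -0.06977 to 0.1542 percentage points with each sample left out. The share without mitochondrial genes was not run, since the tables analysed hold no rows named as genes of the mitochondrial genome. Precision is limited by 2 samples per group and, for RPL7, RPS10 and RPS27, by counts of 19 to 55 reads.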
